A study of Mus musculus with 12 samples.

Results

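Lyz1 and Lyz2 are the 2 mouse genes that encode c-type lysozymes of epithelial and myeloid cells, and their transcripts were followed here in tumor-associated macrophages (TAMs). They are 2 of the 55401 genes listed in each of 2 RNA-seq count tables, and they were picked by symbol, because Lyz2 is the locus that carries Cre in the line used for the knockout. Their values in both comparisons were known when they were picked, so these values are given as a description, without a test.

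The study asked how AMPK, a kinase that senses cellular energy, bears on the death of TAMs in subcutaneous B16-F10 melanoma, a mouse skin tumor line grown in C57BL/6 mice. The first table holds 3 early-stage samples (day 8) and 3 late-stage samples (day 15), all labelled with the genotype WT. The second holds 3 samples from AMPK fl/fl mice, called WT below, and 3 from AMPK fl/fl Lyz2cre/cre mice, called AMPK-KO, taken on day 15 by the study's methods, with WT described as littermate controls. Both groups of the second table carry the floxed alleles, no treatment is given for any sample, and Cre is named for AMPK-KO alone. The genotype field of AMPK-KO replicates 2 and 3 writes Lyz3cre and Lyz4cre, while their titles write Lyz2cre/cre. In this line Cre is driven by the Lyz2 promoter, which is active in macrophages, monocytes and neutrophils, so the deletion is not limited to TAMs. The mice were 5 weeks old and the sort took CD45+CD11b+Ly6C-Ly6G-F4/80+ cells. The labels do not say whether each sample was a separate mouse, so the spread between samples may be partly technical.

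Lysozyme cuts the glycan strands of peptidoglycan, the mesh of the bacterial cell wall. In mice the gene was duplicated: Lyz2 (M lysozyme) is the form of macrophages, monocytes and neutrophils and serves as a general marker of these cells, while Lyz1 (P lysozyme) is known as the form of Paneth cells at the base of the intestinal crypts. In the Lyz2-cre line the Cre sequence was inserted at the start of the Lyz2 coding region, and an allele that carries it no longer makes M lysozyme.

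Both genes lie side by side on the minus strand of chromosome 10 (GRCm38, GENCODE M21), each with 4 exons. Lyz2 (ENSMUSG00000069516.8) spans chr10:117277331-117282321 with 1316 exonic bases, and Lyz1 (ENSMUSG00000069515.6) spans chr10:117287797-117292868 with 1263. Between them lie 5475 bases. Exon 2, which is wholly coding, is shown as an example of how few bases separate the 2 transcripts. It covers chr10:117280641-117280805 in Lyz2 and chr10:117291029-117291193 in Lyz1, and capitals mark the bases that differ between the genes.
Lyz2 exon 2: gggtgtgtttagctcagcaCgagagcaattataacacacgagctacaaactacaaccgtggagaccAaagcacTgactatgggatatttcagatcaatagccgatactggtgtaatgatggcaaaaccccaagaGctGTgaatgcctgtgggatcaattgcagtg
Lyz1 exon 2: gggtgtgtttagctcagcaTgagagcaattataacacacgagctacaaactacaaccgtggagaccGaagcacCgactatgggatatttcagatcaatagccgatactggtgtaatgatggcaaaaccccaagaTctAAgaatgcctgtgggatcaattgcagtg
Of the 165 bases of this exon, 6 differ, while 14 differ in exon 1 and 31 in exon 4. Over the whole transcripts 1211 of 1262 aligned bases were the same (96.0%), exon 3 was the same throughout its 79 bases, and the longest stretch that both share had 118 bases. Of all stretches of 50 bases in the Lyz2 transcript, 15.4% occur in Lyz1 as well. At 100 bases the share was 1.97%, and at 150 bases it was 0 of 1167 stretches.

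The sequence before the start sites is shown because the levels of the 2 genes were nearly opposite in the 2 tables. The windows run from 130 to 50 bases before the RefSeq start (GRCm38.p6, minus strand), which is chr10:117282322-117282402 for Lyz2 and chr10:117292918-117292998 for Lyz1. In GENCODE the start of Lyz2 lies 49 bases before its RefSeq start, and the windows end there. The starts of Lyz1 are the same in both. Capitals again mark the bases that differ.
Lyz2 upstream: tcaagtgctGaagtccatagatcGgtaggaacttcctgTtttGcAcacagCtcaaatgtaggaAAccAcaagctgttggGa
Lyz1 upstream: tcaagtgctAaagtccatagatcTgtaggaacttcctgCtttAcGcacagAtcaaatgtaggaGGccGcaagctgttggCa
They differed at 10 of 81 positions, and over the 250 bases before the start the promoters were 80.6% identical when aligned with gaps. The letters AGGAAGT, an ETS-type motif of the kind that the myeloid factor PU.1 binds, were searched on both strands of the 250 bases. They occurred once in each promoter, on the strand opposite to the gene and 100 bases before the RefSeq start (acttcct in the printed windows), and in 7.69% of the 32851 promoters searched. The letters TATAAA were in neither promoter and in 12.4% of all. The match is a match of letters, and binding was not measured.

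The libraries held 71019494 to 84470374 counts. All 14 macrophage markers were detected in every sample, with a summed level of 13129.6 to 20831 CPM (counts scaled to a library total of 1000000), among them the F4/80 gene Adgre1 and the CD11b gene Itgam. The Ly6G gene Ly6g, which defines neutrophils, was at 0 in 11 of 12 samples. Ly6c2, a gene of the Ly6C that the gate also excludes, was detected in every sample. Its group means were 29.8 CPM in early-stage, 8.46 in late-stage, 17.5 in WT and 40.2 in AMPK-KO. Prkaa1, which encodes the AMPK catalytic subunit alpha1 that was floxed, stood at 69.8, 61.8 and 63.2 CPM in the WT samples and at 47.1, 41.0 and 40.7 CPM in AMPK-KO. Its log2 fold change was -0.60 (SE 0.07, edgeR quasi-likelihood test, Benjamini-Hochberg adjusted p = 0.000226). The floxed gene was thus lower in the samples labelled AMPK-KO, although counts remained. The counts are per gene and not per exon, so how much of the remaining transcript was intact was not tested.

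In the early-stage and late-stage TAMs, Lyz2 was the abundant lysozyme. The early-stage samples had 2950, 2891 and 2453 CPM of Lyz2 (2764 ± 271, SD, n = 3), and the late-stage samples 1112, 1108 and 1130 CPM (1117 ± 11.8, SD, n = 3). Per kilobase of exon these levels placed Lyz2 12th to 21st of all genes in the early-stage samples and 36th to 39th in the late-stage samples. The WT samples, in contrast, had 9.45, 13.3 and 9.15 CPM (10.6 ± 2.31, SD, n = 3), and the AMPK-KO samples 9.18, 10.97 and 13.4 CPM (11.2 ± 2.14, SD, n = 3). There Lyz2 ranked between 4458th and 5742nd. The groups were thus in the order early-stage, late-stage, then AMPK-KO and WT, and of these only AMPK-KO and WT overlapped.

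Lyz1 was higher in WT and AMPK-KO than in the stage samples, the opposite of Lyz2. Its levels were 87.8, 91.7 and 103 CPM in the early-stage samples (94.1 ± 7.79, SD, n = 3) and 45.6, 28.9 and 32.0 CPM in the late-stage samples (35.5 ± 8.91, SD, n = 3). The WT samples had 319, 339 and 315 CPM (324 ± 12.97, SD, n = 3) and the AMPK-KO samples 476, 494 and 500 CPM (490 ± 12.1, SD, n = 3). AMPK-KO was highest, followed by WT, early-stage and late-stage, and no pair of groups overlapped. Late-stage replicate 1 was the sample that stood farthest from its group, and it widened the spread of Lyz1 in that group to 25.1% of the mean. Counting error alone gave 1.63% to 2.08% there and at most 3.86% in any sample for either gene, and in each group the spread between samples was larger. It was smallest for Lyz2 in late-stage, at 1.05%, where counting gave 0.328% to 0.337%.

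**Figure D1:**
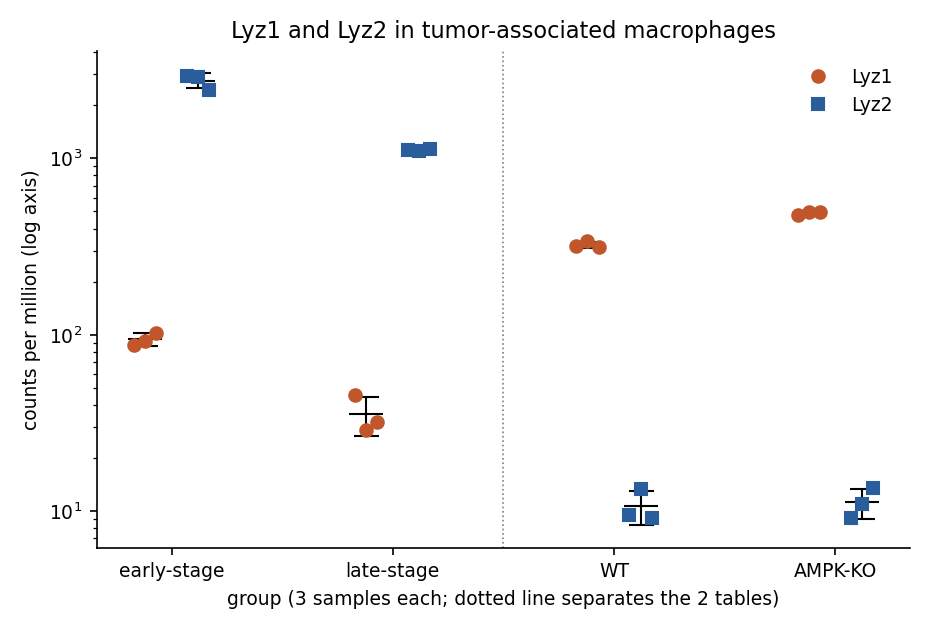
The level in CPM (log axis) of Lyz1 (circles) and Lyz2 (squares) in each of the 12 samples, with the mean and SD of each group of 3. Lyz2 lies above Lyz1 in every early-stage and late-stage sample, with group means of 2764 and 1117 CPM, and below it in every WT and AMPK-KO sample, with means of 10.6 and 11.2 CPM.

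Between day 8 and day 15 both lysozyme genes were lower in the later tumors, and by a similar factor. The log2 fold change of Lyz2 was -1.33 (SE 0.08, 2.52-fold lower) and that of Lyz1 was -1.43 (SE 0.15, 2.70-fold lower), as estimated with edgeR after TMM scaling. In these samples Lyz1 had only 2.61% to 4.19% of the counts of Lyz2. Whether the fall of Lyz1 is its own or that of Lyz2 reads assigned to it was not tested. For both genes each late-stage sample was below each early-stage sample. Over all genes with a mean of at least 1 CPM, 15.9% showed this separation downward, and since the genes were chosen with these values known, nothing is read from the match. With each sample left out in turn the estimate stayed between -1.41 and -1.27 for Lyz2, and between -1.64 and -1.31 for Lyz1, the former of these without late-stage replicate 1. Of the 17630 genes tested, 726 had a change in either direction at least as large as that of Lyz2. The sex-linked transcripts differed between these groups as well: 4 Y-linked genes had 3435 to 4035 counts together in each early-stage sample and 0 to 4 in late-stage. Xist, an RNA of female cells, had 13568 to 22094 counts in early-stage and 23982 to 41700 in late-stage. Each early-stage sample thus held both kinds of transcript, and whether it pooled mice of both sexes was not tested. Tumor stage and the make-up of the samples by sex cannot be told apart. In bulk samples fewer cells of a type and less RNA per cell cannot be told apart, and this holds for each change given here.

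Between AMPK-KO and WT only Lyz1 was separated. Lyz1 was 1.51-fold higher in AMPK-KO (log2 fold change 0.59, SE 0.05), with each AMPK-KO sample above each WT sample, a separation that 21.3% of genes with a mean of at least 1 CPM showed upward. Its estimate ranged from 0.57 to 0.64 with each sample left out in turn. For Lyz2 the estimate was 0.07 (SE 0.18), and the samples of the groups overlapped. The estimate of Lyz2 was below 0 without WT replicate 1, WT replicate 3 or AMPK-KO replicate 3, and its range was from -0.08 to 0.28, so that no direction can be given. Of the 17532 genes tested, 3427 changed by at least as much as Lyz1.

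**Figure D2:**
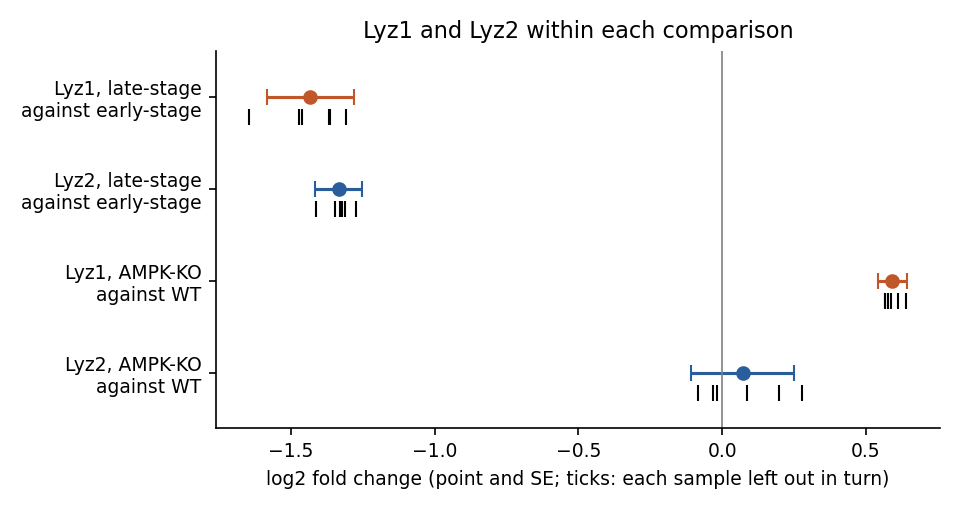
Log2 fold change (x axis) of Lyz1 and Lyz2 in the 2 comparisons, with its standard error, and below each the 6 estimates that leave out each sample in turn. Both genes lie below 0 in late-stage against early-stage (-1.43 and -1.33), Lyz1 lies above 0 in AMPK-KO against WT (0.59), and the estimates of Lyz2 there fall on both sides of 0.

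For Lyz2 the gap between the tables was far larger than its changes within them. WT and late-stage are the groups closest in design, since both were given as day 15 and neither carries a Cre label. Lyz2 was 105-fold lower in WT than in late-stage (log2 ratio of mean CPM -6.72, SE 0.17) and 99.7-fold lower in AMPK-KO. Compared with early-stage it was 260-fold lower in WT and 247-fold lower in AMPK-KO. Lyz1 went the other way: it was 9.14-fold higher in WT than in late-stage (log2 ratio 3.19, SE 0.20) and 13.8-fold higher in AMPK-KO. Against early-stage it was 3.45-fold higher in WT and 5.21-fold higher in AMPK-KO. No sample of one table overlapped with a sample of the other for either gene. Such a separation was common among genes with a mean of at least 1 CPM in either group. Against late-stage it was seen downward in 27.1% and upward in 18.2% of genes for WT, and in 32.1% and 23.6% for AMPK-KO. Against early-stage it was seen downward in 18.2% and upward in 17.3% for WT, and in 24.0% of genes in each direction for AMPK-KO. Nothing is read from the separation itself.

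Among 13448 genes with a mean of at least 1 CPM in WT or late-stage the log2 ratio of WT over late-stage had a median of -0.03. With 0.1 CPM added to each mean, Lyz2 was second from the bottom and Lyz1 was 18th from the top. Only Xist, the RNA that silences an X chromosome in female cells, was lower than Lyz2, at 369 CPM in late-stage and 1.56 CPM in WT. Gm28036 (33.6 and 1.26 CPM), Rbp4 (1.96 CPM, and listed at 0 in WT) and Gm20458 (1.92 CPM, and listed at 0 in WT) came next. The 4 highest were the Y-linked genes Eif2s3y, Ddx3y, Kdm5d and Uty, followed by Gm20521. Together these 4 had 9229 to 11360 counts per WT sample and 11299 to 12183 per AMPK-KO sample, but 0 to 4 in late-stage and 3435 to 4035 in early-stage. Xist had 60 to 158 counts in WT and 0 to 8 in AMPK-KO, against 13568 to 22094 in early-stage and 23982 to 41700 in late-stage. The sex-linked transcripts, the floxed alleles, any Lyz2cre allele that the labels do not name and whatever differed in the handling of the tables cannot be told apart. The methods name female C57BL/6 mice for the tumor models. Cre is not named for WT, whose Lyz2 level overlapped that of AMPK-KO, the group labelled Lyz2cre/cre. The floxed gene Prkaa1 had 61.8 to 69.8 CPM in WT and 40.7 to 47.1 CPM in AMPK-KO. In early-stage it had 62.9 to 80.8 CPM and in late-stage 55.2 to 64.9 CPM. Whether the mice labelled AMPK fl/fl also carried Lyz2cre alleles was not tested, since the tables hold no genotypes. This leaves the meaning of WT uncertain for Lyz2 and for each comparison of AMPK-KO with WT given here.

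**Figure D3:**
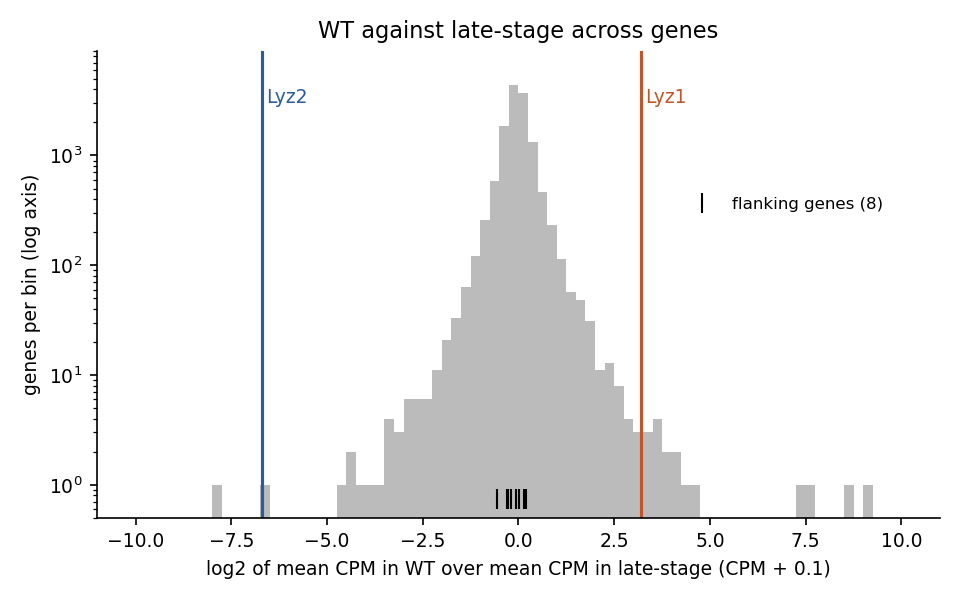
Histogram of the log2 ratio of mean CPM in WT over mean CPM in late-stage (x axis, 0.1 CPM added) for 13448 genes, with the number of genes per bin on a log axis. Lines mark Lyz2 at -6.70 and Lyz1 at 3.19, and ticks mark the 8 expressed genes that flank the pair, from -0.56 to 0.19.

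The genes around the lysozyme pair did not share this gap. Of the 5 protein-coding genes on each side, within 458 kb, Lrrc10 had 4 counts in all samples together and the lysozyme-like gene 9530003J23Rik had none. The other 8 were expressed. The WT over late-stage log2 ratio ran from -0.56 for the carboxypeptidase gene Cpm, which had a mean of only 1.85 CPM in late-stage, to 0.19 for Frs2, an adaptor of FGF receptors. The chaperonin subunit Cct2 had 313 CPM in late-stage and 273 CPM in WT, the p53 regulator Mdm2 139 and 133 CPM, and the RNA-processing factor Cpsf6, the nearest expressed gene above Lyz1, 84.9 and 69.2 CPM. Yeats4, Slc35e3 and Nup107 had ratios of 0.15, 0.02 and -0.27. Over all genes tested, the edgeR test called 9.18% in late-stage against early-stage and 21.1% in AMPK-KO against WT. Within the tables none of the 8 passed it in either comparison (2 of 8 in each at an unadjusted p under 0.05, and 1 of 8 in each with DESeq2). With 8 genes and these shares, nothing is read from this count. Without early-stage replicate 1, 1 was higher and 1 lower in late-stage, and without WT replicate 1 or AMPK-KO replicate 3, 1 was lower in AMPK-KO.

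Seen within a sample, the lysozyme pair had nearly the same proportion throughout, with the roles exchanged between the tables. The gene with fewer counts stood at 1.93% to 4.19% of the other (median 2.93%) in all 12 samples. In early-stage TAMs Lyz2 counts were 33.6, 31.5 and 23.9 times those of Lyz1, and in late-stage TAMs 24.4, 38.3 and 35.4 times. In WT the counts of Lyz1 were 33.7, 25.5 and 34.5 times those of Lyz2, and in AMPK-KO 51.9, 45.0 and 37.2 times. The ratio overlapped between early-stage and late-stage, while each AMPK-KO sample was above each WT sample. Per kilobase of exon, Lyz2 reached 2101 ± 206 in early-stage and 849 ± 8.94 in late-stage (CPM per kb, SD, n = 3), against 74.5 ± 6.17 and 28.1 ± 7.05 for Lyz1. In WT and AMPK-KO it was Lyz1 that reached 257 ± 10.3 and 388 ± 9.58, against 8.08 ± 1.76 and 8.51 ± 1.63 for Lyz2.

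The sum of both genes was not kept between the tables. It was 2858 ± 264 CPM in early-stage, 1152 ± 13.5 in late-stage, 335 ± 15.3 in WT and 501 ± 14.1 in AMPK-KO (SD, n = 3). Because the transcripts share the stretches given above, and because the treatment of reads that match both is not given in the sources used here, how many counts of the lower gene came from the higher was not tested. The values of Lyz2 in WT and AMPK-KO, and of Lyz1 in early-stage and late-stage, are uncertain for this reason.

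**Figure D4:**
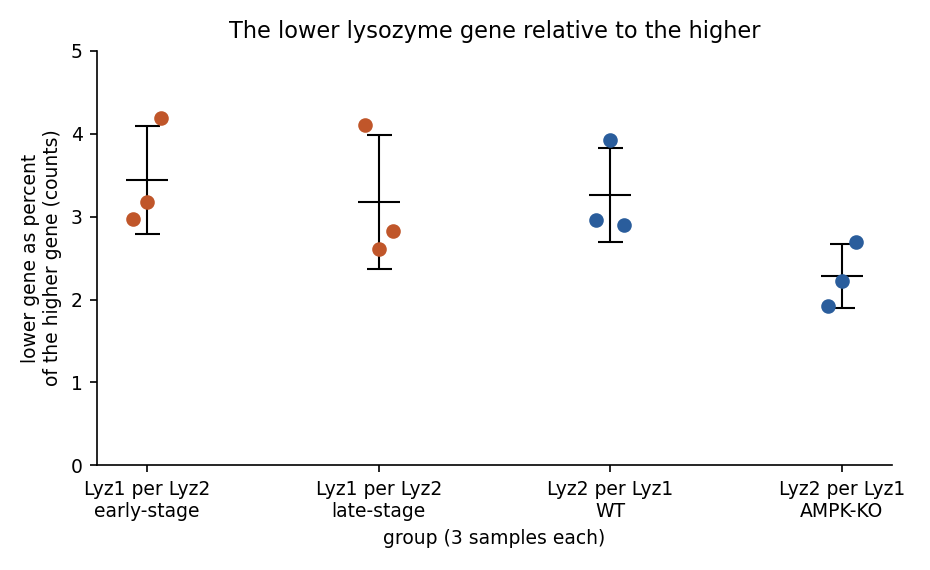
Counts of the lower lysozyme gene as a percentage of the higher (y axis) in each sample, with the mean and SD of each group of 3. Lyz1 is the lower gene in early-stage and late-stage and Lyz2 in WT and AMPK-KO, and the 12 values lie between 1.93% and 4.19%.

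The rest of the lysozyme-like family was nearly silent. Of 13 symbols, 12 were found in the tables, and 8 of these were at 0 in all samples: 9530003J23Rik, Lyzl1, Lyzl6, Spaca3, Spaca5, Spaca7, Lyg1 and Lyg2. A count of 0 allows up to 3 counts in a sample. Lalba, the milk protein alpha-lactalbumin, was at 0 in 9 samples, and Lyzl4 had 0.132 to 0.432 CPM as group means. Lyzl4 was the sole member tested besides the pair and passed in neither comparison (log2 fold change -1.24, SE 0.65, edgeR adjusted p = 0.278 for late-stage, and -1.72, SE 0.98, adjusted p = 0.261 for AMPK-KO). Lyz1 and Lyz2 thus held nearly all counts of the family.

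The genes that act beside lysozyme were counted next, starting with tumor stage. In late-stage against early-stage the edgeR test called 9.18% of 17630 genes at an adjusted p under 0.05, 4.31% higher and 4.88% lower. Of 13 tested genes for sensing and transport of peptidoglycan, 1 was lower, the LPS co-receptor Cd14 (log2 fold change -0.70, adjusted p = 0.00816). That call was lost without early-stage replicate 2, late-stage replicate 2 or late-stage replicate 3. The list had 2 lower without early-stage replicate 1 or early-stage replicate 3, and 1 higher without early-stage replicate 1. Its median was 0.02, against 0.0027 for all genes. Of 12 other antimicrobial genes of phagocytes, 7 were lower and 0 higher (8 in either direction at an unadjusted p under 0.05, 8 with DESeq2), with a median of -1.33. They include the chitinase-like Chil3 (-1.81, SE 0.12, adjusted p = 2.65e-05) and the nitric oxide synthase Nos2 (-1.16, SE 0.08, adjusted p = 4.20e-05), and both calls were kept with each sample left out. Without early-stage replicate 3, 1 gene of the list was higher.

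Genes of the lysosome, the compartment where lysozyme works on engulfed bacteria, mostly did not pass the edgeR test in this comparison. At an unadjusted p under 0.05 there were 10 of 18. Of 18 tested, 2 were lower, the cathepsins Ctsl (-0.81, SE 0.09, adjusted p = 0.000468) and Ctss (-0.26, SE 0.06, adjusted p = 0.0310). The call of Ctss was lost without early-stage replicate 2 or any late-stage sample, and the median of the list was 0.04. Of 14 myeloid transcription factors, Runx1 was higher (0.28, adjusted p = 0.0270) and Maf and Cebpe were lower (-0.42, adjusted p = 0.0183, and -1.49, adjusted p = 0.0270). The calls of all 3 were lost when late-stage replicate 2 or 3 was left out. Those of Runx1 and Cebpe were also lost when early-stage replicate 2 was left out, that of Runx1 with late-stage replicate 1 left out, and that of Cebpe with early-stage replicate 3 left out. The list had 3 higher without early-stage replicate 1 and 4 lower without early-stage replicate 3, and its median was -0.18. DESeq2 called 5 of the 14. Among 10 myeloid genes other than Lyz2 that are used to drive Cre, the chemokine receptor genes parted: Cx3cr1 was higher (1.07, SE 0.08, adjusted p = 4.79e-05) and Ccr2 lower (-1.48, SE 0.14, adjusted p = 0.000273). The integrin Itgax was higher as well (0.56, SE 0.07, adjusted p = 0.000998). In all, 2 of the 10 were higher and 3 lower, with a median of -0.04.

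In AMPK-KO against WT the edgeR test called 21.1% of 17532 genes, 11.3% higher and 9.78% lower. Of the 13 tested peptidoglycan genes 7 were higher and 0 lower (median 0.17, against -0.0037 for all genes), and DESeq2 called 7. The muramyl peptide receptors Nod2 (0.93, SE 0.09, adjusted p = 5.50e-05) and Nod1 (0.67, SE 0.05, adjusted p = 7.35e-06) led them. With WT replicate 3 left out 3 remained, and with any 1 of the AMPK-KO samples left out 4. Of the 12 other antimicrobial genes 7 were higher and 2 lower (median 0.66). The ribonuclease Ear2 rose by 1.51 (SE 0.08, adjusted p = 7.72e-07) and Nos2 by 0.99 (SE 0.06, adjusted p = 3.27e-06). The calls of the pair that fell, the siderophore-binding Lcn2 (-0.61, adjusted p = 0.0351) and the proteinase Prtn3 (-1.75, adjusted p = 0.0372), were each kept in only 1 of 6 fits that left out a sample (without WT replicate 1 and without AMPK-KO replicate 2).

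Lysosomal genes went in both directions in AMPK-KO. Of the 18 tested, 10 were lower and 4 higher, with a median of -0.17. The cathepsins Ctsd (-0.82, SE 0.04, adjusted p = 4.90e-07) and Ctsb (-0.39, SE 0.03, adjusted p = 1.21e-05) were lower, while Ctss (0.44, SE 0.06, adjusted p = 0.000358) and Ctsc (0.22, SE 0.03, adjusted p = 0.00122) were higher. Of the 14 myeloid transcription factors 6 were higher and 0 lower (median 0.13, 8 at an unadjusted p under 0.05 and 6 with DESeq2), and without WT replicate 1 there was 1 lower. They include Irf8 (0.40, SE 0.04, adjusted p = 9.53e-05) and Egr2 (0.39, SE 0.07, adjusted p = 0.00257). Of the 10 genes other than Lyz2 used to drive Cre 6 were higher and 2 lower (median 0.17), and the higher count fell to 3 without WT replicate 3 or AMPK-KO replicate 2. Itgax rose by 1.10 (SE 0.06, adjusted p = 7.32e-07) and Ccr2 by 0.77 (SE 0.05, adjusted p = 4.32e-06). The chemokine Pf4 fell by 1.01 (SE 0.10, adjusted p = 4.99e-05) and the endosomal glycoprotein Cd68 by 0.55 (SE 0.04, adjusted p = 1.18e-05). Lyz2 stood beside them with 0.07 and overlapping samples.

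The gate given in the methods (Ly6C-Ly6G-) removes Ly6C-high monocytes and neutrophils, although a supplementary legend of the study writes Ly6C+ for TAMs. Markers of these cells, which express lysozyme, moved as well, and their part in the lysozyme values was not tested. Among all genes tested, 4.31% were called higher and 4.88% lower in late-stage, and 11.3% and 9.78% in AMPK-KO. Monocyte markers summed to 1081 to 1383 CPM in early-stage and to 409.6 to 480 CPM in late-stage, and 7 of 8 were lower (median -1.52; Chil3 and Ccr2 are also in lists above). In WT they summed to 1422 to 1506 CPM and in AMPK-KO to 1505 to 1567 CPM, with 3 higher and 1 lower (median 0.05). Of 12 neutrophil markers, which summed to 120.1 to 126 CPM in early-stage, 106 to 112 in late-stage, 110.2 to 119 in WT and 184 to 186 in AMPK-KO, 2 of 6 tested were lower in late-stage (median -0.23) and 4 of 7 tested were higher in AMPK-KO (median 1.82). The count in late-stage fell to 1 when any sample but early-stage replicate 1 was left out. The median of 1.82 in AMPK-KO was the value of S100a9, a gene of low level (0.696 CPM in WT and 2.47 CPM in AMPK-KO). Most of the neutrophil sum came from Csf3r (96.5 CPM in WT and 154 in AMPK-KO) and Mmp8 (16.7 and 24.3 CPM). Within the list, Mpo, Ngp, Camp and Ly6g were at 0 in 10 or 11 of 12 samples, Elane in 8 and Retnlg in 7. Ltf and Cxcr2 were at 0 in 1 sample each, and S100a8, S100a9, Csf3r and Mmp8 were detected in every sample.

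The other marker lists describe what else the sorted cells held. Their counts stand beside shares over all genes of 4.31% higher and 4.88% lower in late-stage, and 11.3% and 9.78% in AMPK-KO. Of the 14 macrophage markers 2 were higher and 1 lower in late-stage (median 0.10), where the higher count was 5 without early-stage replicate 1 and 1 without early-stage replicate 2 or any late-stage sample, and the lower count was 2 without early-stage replicate 1. In AMPK-KO 4 were higher and 4 lower (median -0.05), with 2 higher without WT replicate 3, AMPK-KO replicate 1 or AMPK-KO replicate 2. B16 melanoma markers summed to 1577 to 1748 CPM in early-stage and 751 to 1163 in late-stage, with 5 of 6 lower (median -0.68). That count was 1 without early-stage replicate 2, 3 without early-stage replicate 3, and 2 when late-stage replicate 2 was left out. In WT these markers summed to 946 to 976 CPM and in AMPK-KO to 646 to 691 CPM, again with 5 of 6 lower (median -0.47). Of 7 dendritic cell markers 2 were higher and 1 lower in late-stage (median -0.17), and 6 were higher and 1 lower in AMPK-KO (median 0.52). Of 8 T and NK cell markers 2 were higher and 2 lower in late-stage (median 0.36), and 7 were higher in AMPK-KO (median 0.93). In late-stage against early-stage DESeq2 called 7 of these 8, and 6 of the 14 macrophage markers. Of 5 B cell markers 3 were higher in late-stage (median 0.87), and 1 was higher and 4 lower in AMPK-KO (median -5.01). The late-stage counts of the dendritic and T and NK lists rested on single samples. When early-stage replicate 2, late-stage replicate 2 or late-stage replicate 3 was left out, 1 and 0 genes of these lists were higher. With early-stage replicate 3 left out 4 T and NK markers were higher, with early-stage replicate 1 left out 2 dendritic markers were lower, and with late-stage replicate 2 left out 1 T and NK marker was lower.

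The genes with the highest Pearson correlation with each lysozyme gene over the 12 samples were different for each. For Lyz1, by Pearson correlation of log2(CPM + 1) over 13198 genes, these were the inhibitory Fc receptor Fcgr2b (r = 0.994), Trim30b (0.993), the LIF receptor Lifr (0.990), the fatty acid receptor Gpr84 (0.989) and the inhibitory receptor Pirb (0.982). Fcgr2b had means of 428 CPM in early-stage, 279.8 in late-stage, 656 in WT and 711 in AMPK-KO, which is the order that Lyz1 shows. For Lyz2 they were Xist (0.968), Gm10269 (0.965), Atf1 (0.962), Insm1 (0.961) and Gm9762 (0.961). Xist (222 CPM in early-stage, 369 in late-stage) and Insm1 (1.98 and 2.48 CPM) were higher in late-stage, unlike Lyz2, while the other named genes were lower. The Spearman rho of Xist with Lyz2 was 0.615. The Lyz1 and Lyz2 levels themselves had r = -0.876 and a Spearman rho of -0.580. The 12 points fall into the 2 tables and the samples of a table share their handling, so these values are a description only.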

How the data were processed

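TAM RNA-seq was deposited as 2 tables of read counts per gene (early-stage and late-stage, AMPK-KO and WT, 3 samples each). Per the labels and methods, the authors checked reads with FastQC, mapped them with HISAT2 and counted them with featureCounts. Builds mm10 and GRCm38 are named in the submitters' processing notes, and versions, annotation, strand and the handling of multiply mapped reads are not given in the sources used here. Of 55401 identifiers, 54349 matched GENCODE M21 with their version, which gave positions and exon lengths. Promoters are from RefSeq (GRCm38.p6), and both genes matched.

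CPM used library totals. Each table was fitted alone with edgeR 4.0.16 in R 4.3.3 (filterByExpr, TMM, quasi-likelihood test, no covariates), and p-values were adjusted by Benjamini-Hochberg over all genes tested. The threshold was 0.05. The steps were tested on simulated data. Lyz1, Lyz2 and the lists were chosen with earlier results of these data known. The text names Lyz1, Lyz2 and Prkaa1, of each list the genes with the 2 smallest adjusted p in each direction, the neighbours, the 5 most correlated genes, the 5 lowest and highest ratios of WT over late-stage, and genes that a cell type check needs. Alternatives were RLE, upper-quartile factors, library totals alone, DESeq2 1.42.0, other filters, a block for the replicate number, and leaving out single samples. The 2 tables were made separately, so no test was run between them. Depth was 71019494 to 84470374 counts. A result of the lysosomal list in late-stage against early-stage is not reported here.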

Additional observations from a re-analysis of the deposited data

How the results depend on the processing

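The values of Lyz1 and Lyz2 moved little with the processing. All 48 alternative fold changes within the comparisons and all 32 ratios between the tables stayed within 1 SD of the samples. So did all 16 Lyz1 to Lyz2 ratios. Leaving out 1 of 3 samples can hardly move a group mean by 1 SD of the same samples, so nothing is read from that part. Counting per kilobase of exon shifts each Lyz1 to Lyz2 ratio by the same factor. With all samples kept, the late-stage estimate ran from -1.46 to -1.41 for Lyz1 and from -1.35 to -1.31 for Lyz2. For Lyz1 in AMPK-KO it ran from 0.58 to 0.60. Only Lyz2 in AMPK-KO against WT changed sign, when a sample was left out. Without a sample left out its estimate ran from 0.06 to 0.08. Scaling the 12 libraries together by TMM or RLE put Lyz2 in WT over late-stage at -6.67 with either, and Lyz1 at 3.24 and 3.23 (log2). With each sample left out, the log2 ratio of WT over late-stage ran from -6.91 to -6.62 for Lyz2 and from 3.06 to 3.41 for Lyz1.

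The number of genes called in late-stage against early-stage was 1619, but 936 with no filter beyond 1 count, and it ran from 653 (without late-stage replicate 2) to 2835 (without early-stage replicate 1). Leaving out any sample but early-stage replicate 3 moved it by over 1.5 times. For AMPK-KO against WT it was 3693 and ran from 2414 (without WT replicate 3) to 4039 (without WT replicate 1), with 2419 without AMPK-KO replicate 2. The cause was not tested. DESeq2 called 2414 and 4106 genes. Of 672 alternative counts over the gene lists 91 moved by over 1.5 times, 26 of them with all samples kept. Of the 5 genes most like Lyz1 and the 5 most like Lyz2, Spearman correlation kept 1 and 0.

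Samples of the same replicate number did not deviate together (correlation over genes -0.0039 to 0.042), and 0 of 6 and 3 of 6 samples correlated best with their own number. With the replicate block 1417 and 3862 genes were called, and the log2 fold changes were -1.46 (Lyz1) and -1.33 (Lyz2) for late-stage, and 0.59 and 0.08 for AMPK-KO. Groups of 3 samples limit each comparison, and depth does not resolve how reads shared by the lysozyme transcripts were assigned.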
